A study of Mus musculus with 4 samples.

Results

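The BCL2 family encodes the proteins that decide whether mitochondria release the signals for apoptosis, and 10 of its genes were followed here across 4 RNA libraries. The libraries came from stem-like, tumour-initiating cells of mouse liver. The 10 genes were taken by symbol from a table of 23359 gene rows, and all 10 were present. They comprise 3 guardians that protect cells (Bcl2, Bcl2l1 and Mcl1), 2 effectors that open the outer mitochondrial membrane (Bax and Bak1) and 5 genes of the BH3-only class that start the process (Bid, Bad, Bcl2l11, Bbc3 and Pmaip1).

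In this pathway the guardians hold the effectors and the BH3-only proteins in check by binding them. BH3-only proteins are made or activated under stress, occupy the guardians and, for some of them, activate the effectors directly. The effectors then form pores, cytochrome c leaves the mitochondria and caspases are switched on. Much of this control acts on the proteins, through phosphorylation, cleavage and degradation, which an RNA measurement does not show.

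The cells were of C57BL/6 origin and were grown with serum, EGF and dexamethasone in all groups. One culture received vehicle. Another received 5 µg/ml of ATRA, all-trans retinoic acid, a ligand of the retinoic acid receptors. SAHA, the histone deacetylase inhibitor vorinostat, was given to another at 0.5 µg/ml. The remaining culture received both compounds (the combination), and treatment lasted 16 hours. The sources used here do not give the time for vehicle, or whether the cells are 1 clone or come from 1 tumour. Each group had 1 library, so the differences below are without replicates, errors or p-values. Levels are FPKM, fragments scaled to transcript length and library size, which allows levels of different genes to be compared. Differences are on the log2(FPKM + 1) scale, which understates the difference of low genes. The 2-fold mark is a difference of 1 or more in either direction, and only genes past it are called higher or lower as a count. Folds in words are ratios of the FPKM themselves.

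The 8616 rows whose 4 libraries averaged 1 FPKM or more are called counted genes. Of the family, 9 genes were among these, and Bcl2, at a mean of 0.894 FPKM, was not. Bcl2l11 (mean 1.25 FPKM) was under 1 FPKM with vehicle and with ATRA and passed through the other libraries. The number of fragments behind each value is not known, since the estimate of depth that was tried could not measure it. The row Gm20594, which is no family gene, held 33.9% of all FPKM with SAHA and 10.3 to 18.0% in the other libraries. The median difference from vehicle over the counted genes was 0.00 with ATRA, -0.12 with SAHA and 0.04 with the combination. Hepatocyte markers (Alb, Afp, Hnf4a, Ttr, Apoa1 and Cps1) were near 0 in all libraries, with sums of 0.161 to 0.384 FPKM, so the cells did not carry the defining RNAs of mature liver cells. The 4 bile duct markers summed to 2.96 to 6.36 FPKM. Lymphocyte and endothelial markers, 3 of each, summed to at most 0.125 FPKM. Among the macrophage markers Ptprc and Csf1r stayed at or below 0.0281 FPKM, while Cd68 stood at 1.89 FPKM for vehicle and 5.20 for SAHA. The 5 mesenchymal markers summed to 597 FPKM in the vehicle library, 457 under ATRA, 322 under SAHA and 364 under both. The 2 keratins summed to 96.4, 117, 69.9 and 46.1 in the same order. Single genes carried most of these sums, with Vim at 562 FPKM and Krt18 at 95.3 in the vehicle library. Sparc stood at 33.4 FPKM there, Pdgfrb at 1.55 and Krt8 at 1.11. Col1a1 and Col3a1 were at most 0.0465 FPKM in any library. The part of these marker shifts in the family's values was not tested. In bulk RNA a smaller number of cells of a type and less RNA per cell cannot be told apart.

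The start regions of 3 of the 4 family genes past the 2-fold mark in the combination are shown, those of 2 guardians that were lower and 1 BH3-only gene that was higher. Each is the 250 bases before the RefSeq start nearest to the gene's GENCODE 5′ end (GRCm38.p6), written 5′ to 3′ on the gene's strand, with GC boxes (GGGCGG on either strand) in capitals.
Bcl2l1, chr2:152831729-152831978, minus strand: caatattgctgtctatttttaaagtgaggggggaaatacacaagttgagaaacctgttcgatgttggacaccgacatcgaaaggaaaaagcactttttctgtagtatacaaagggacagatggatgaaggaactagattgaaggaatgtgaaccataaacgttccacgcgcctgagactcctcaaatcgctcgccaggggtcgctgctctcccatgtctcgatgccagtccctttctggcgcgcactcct
Mcl1, chr3:95658471-95658720, plus strand: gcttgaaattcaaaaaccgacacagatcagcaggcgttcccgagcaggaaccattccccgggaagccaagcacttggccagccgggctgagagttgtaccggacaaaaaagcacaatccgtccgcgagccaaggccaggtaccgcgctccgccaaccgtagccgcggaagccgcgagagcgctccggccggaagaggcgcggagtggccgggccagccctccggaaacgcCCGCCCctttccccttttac
Bad, chr19:6941611-6941860, plus strand: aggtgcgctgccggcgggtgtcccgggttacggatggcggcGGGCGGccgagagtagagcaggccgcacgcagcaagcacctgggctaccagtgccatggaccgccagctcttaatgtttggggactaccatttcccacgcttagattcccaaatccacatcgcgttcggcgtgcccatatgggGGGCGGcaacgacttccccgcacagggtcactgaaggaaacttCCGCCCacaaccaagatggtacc
The Bcl2l1 window had a GC content of 47.6% and held no GC box. The Mcl1 window (64.4% GC) held 1 and the Bad window (62.8% GC) held 3. The window of Bak1, the remaining gene, lies inside its GENCODE gene and is not printed. It had 58.4% GC and no GC box. Over all 32851 windows of this length the median GC content was 52.4%, and 32.7% held a GC box. All motifs were searched on both strands, and the other 4 were TGATGNAA (core of a C/EBP-ATF response element, in 3.45% of all windows), TGANTCA (AP-1, 6.75%), CACGTG (E-box, 6.02%) and the ER stress response element (0.113%). None of these 4 was found in the 3 windows shown. RefSeq windows were matched for 9 of the 10 genes, and among the other windows CACGTG was found only in that of Bax. Bcl2l1 has 3 annotated RefSeq starts and Bad 2, and only the chosen ones were searched.

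With vehicle the family was led by 2 guardians. Bcl2l1, which encodes BCL-XL, was at 21.4 FPKM, above 92.1% of counted genes, and Mcl1 was at 14.7 FPKM. Bax followed at 7.49 FPKM, Bid at 5.13, Bak1 at 3.33, Pmaip1 at 3.28, Bbc3 at 1.48, Bad at 1.45, Bcl2 at 1.07 and Bcl2l11 at 0.739. Bcl2, the founding member of the family, was thus among the lowest. The order differed in every treated library. With ATRA Bcl2l1 stayed at rank 1, and Bax (10.9 FPKM) stood just above Mcl1 (10.2). With SAHA Mcl1 was at rank 1 and Bcl2l1 at rank 5, and with the combination Bax was at rank 1 and Bcl2l1 at rank 6. Without replicates it cannot be said which neighbours in these orders differ.

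**Figure D1:**
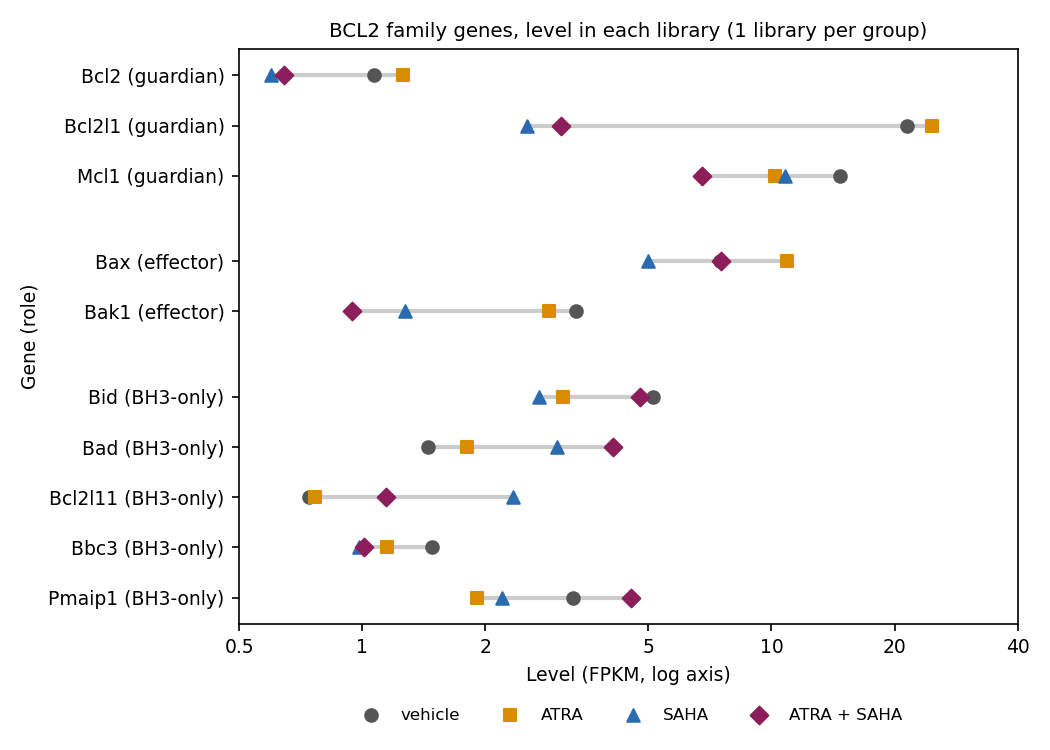
Level of each BCL2 family gene (FPKM, log axis) by treatment, 1 point per library, with a grey line from the lowest to the highest. Bcl2l1 had the widest range, from 2.53 to 24.7 FPKM, and Bbc3 the narrowest, from 0.982 to 1.48 FPKM, and the vehicle point of Bax (7.49) lies under that of the combination (7.51).

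Among the guardians, Bcl2l1 set the SAHA-treated libraries apart. This gene (chromosome 2, 152780668 to 152831728, minus strand, mm10) was at 21.4 FPKM in the vehicle library, 24.7 under ATRA, 2.53 under SAHA and 3.06 under both. Both libraries with SAHA were low and both without it were high. The level was 8.43-fold lower with SAHA than with vehicle and 6.97-fold lower with the combination, log2 differences of -2.66 and -2.46. Of the counted genes, 1.3% and 1.5% had a lower value in these comparisons. The combination was 8.06-fold below ATRA alone. Bcl2l1 makes a long protective and a short death-promoting protein by splicing, and the gene-level value does not separate them.

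Mcl1, a short-lived guardian whose RNA and protein turn over quickly (chromosome 3, 95658788 to 95663176, plus strand), was at 14.7 FPKM in the vehicle library, 10.2 under ATRA, 10.8 under SAHA and 6.78 under both. Each compound alone was below vehicle and the combination was lowest, 2.17-fold under vehicle. The log2 differences were -0.49, -0.41 and -1.02, so that only the combination passed the 2-fold mark, and by little. Bcl2 (chromosome 1, 106538178 to 106714274, minus strand) measured 1.07, 1.26, 0.598 and 0.642 FPKM in the same libraries. Its largest difference from vehicle was -0.38, with SAHA.

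The effectors differed from each other. Bax, whose protein moves from the cytosol to mitochondria (chromosome 7, 45461697 to 45466898, minus strand), was at 7.49 FPKM in the vehicle library, 10.9 under ATRA, 4.99 under SAHA and 7.51 under both. The combination thus lay at the vehicle level, ATRA above it by 0.48 and SAHA at -0.50 on the log2 scale, neither past the mark. Bak1, whose protein resides in the mitochondrial membrane (chromosome 17, 27019810 to 27029009, minus strand), measured 3.33, 2.86, 1.27 and 0.946 FPKM in the same libraries. It was 3.51-fold lower than vehicle in the combination (log2 difference -1.15) and stood at -0.93 with SAHA alone. The ratio of Bax to Bak1 was 2.25 in the vehicle library, 3.81 under ATRA, 3.94 under SAHA and 7.94 under both. Bak1 shares its locus with the opposite-strand gene Ggnbp1, over 256 exon bases in GENCODE, and Ggnbp1 was at 0.0888 to 0.178 FPKM. The sources used here do not say whether strand was used in counting.

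The BH3-only genes gave several different patterns. Bad, a BH3-only gene whose protein is kept inactive by growth factor signalling (chromosome 19, 6941861 to 6951899, plus strand), was at 1.45 FPKM in the vehicle library, 1.80 under ATRA, 2.99 under SAHA and 4.11 under both. Its highest level, in the combination, was 2.83-fold above vehicle, a log2 difference of 1.06, and SAHA alone stood at 0.70. The opposite-strand gene Gpr137 shares 517 exon bases with Bad and measured 0.423, 0.465, 0.809 and 1.45 FPKM in the same libraries. Gpr137 was therefore also highest in the combination, and its part in the Bad values was not tested.

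Bcl2l11, which encodes BIM, a strong direct activator of the effectors (chromosome 2, 128126038 to 128162547, plus strand), was at 0.739 FPKM in the vehicle library, 0.765 under ATRA, 2.34 under SAHA and 1.14 under both. The SAHA library alone was high, 3.17-fold above vehicle, and the combination was 2.06-fold below SAHA. On the log2(FPKM + 1) scale the SAHA difference was 0.94, just under the mark. It was 1.54 with a pseudocount of 0.1, and 1.06 and 1.07 after the libraries were rescaled. The vehicle value is low, and the number of fragments behind it is not known.

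Bid, which is cleaved by caspase-8 to link death receptors to mitochondria (chromosome 6, 120891930 to 120916853, minus strand), was at 5.13 FPKM in the vehicle library, 3.10 under ATRA, 2.70 under SAHA and 4.77 under both. Pmaip1, which encodes NOXA, a partner of MCL1, measured 3.28, 1.91, 2.20 and 4.53 FPKM in the same libraries. Both genes were lower with each compound alone than with vehicle, and near or above vehicle with both compounds, although none of these differences passed the 2-fold mark. Bbc3, which encodes PUMA, a p53 target (chromosome 7, 16308393 to 16318205, plus strand), was at 1.48, 1.15, 0.982 and 1.01 FPKM, with differences from vehicle of -0.21, -0.32 and -0.30.

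The counts of family genes past the mark are given beside the share of all counted genes. With ATRA 0 of the 10 genes passed the 2-fold mark, where 2.11% of counted genes did (0.917% higher, 1.20% lower). With SAHA 1 did, Bcl2l1, where 16.0% of counted genes were lower, 7.88% were higher and 23.9% were either. In the combination against vehicle 4 did (Bcl2l1, Mcl1 and Bak1 lower, Bad higher), where the share of counted genes was 23.7%, with 12.6% lower and 11.1% higher. The combination against ATRA gave 1, Bcl2l1, where 22.4% of counted genes passed (10.5% higher, 11.9% lower), and Bak1 stood at -0.99. The combination against SAHA gave 0, where 3.97% passed (3.04% higher, 0.929% lower). The median difference of all 10 genes was -0.07 with ATRA, -0.42 with SAHA and -0.19 with the combination. For the 9 that were counted it was -0.17, -0.42 and -0.09, against -0.00, -0.12 and 0.04 over all counted genes. The comparisons with vehicle share that 1 library.

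ATRA alone left all 10 genes under the mark, but its differences over all genes were also small. For 90% of counted genes, those in the middle, they ran from -0.43 to 0.47. Bid (-0.58), Pmaip1 (-0.55) and Mcl1 (-0.49) lay below that range and Bax (0.48) just above it.

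**Figure D2:**
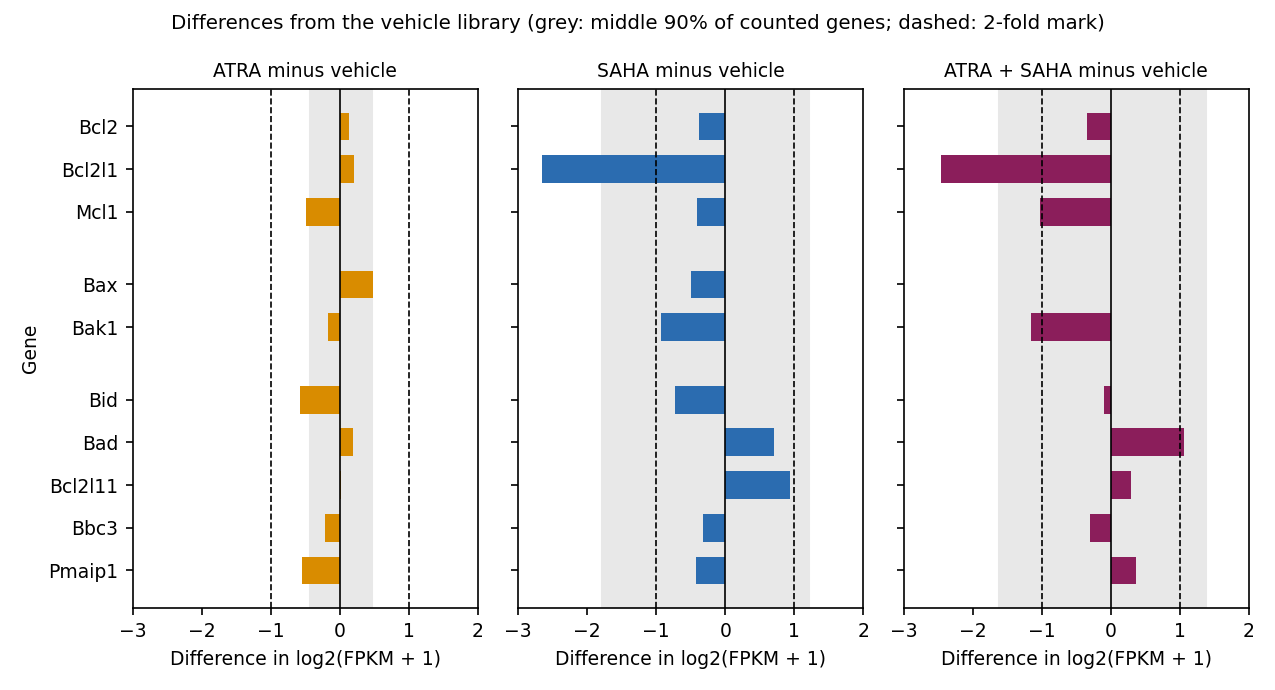
Difference of each family gene from vehicle in log2(FPKM + 1) for ATRA, SAHA and the combination, 1 library each, with the 2-fold mark dashed and the middle 90% of the 8616 counted genes in grey. The Bcl2l1 bars reach -2.66 with SAHA and -2.46 with the combination, outside the grey range, while Mcl1, Bak1 and Bad cross the mark inside it in the combination.

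Summed by role, the guardians carried most of the difference in the family's total between vehicle and the libraries with SAHA. Their summed level was 37.2 FPKM in the vehicle library, 36.1 under ATRA, 14.0 under SAHA and 10.5 under both. The effectors summed to 10.8, 13.7, 6.26 and 8.46 FPKM in the same order, and the BH3-only genes to 12.1, 8.73, 11.2 and 15.6. Guardians therefore made up 61.9% of the summed level with vehicle and 30.4% with the combination, and BH3-only genes 20.1% and 45.1%.

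The ratio of guardians to BH3-only genes, which does not depend on how libraries are scaled, was 3.08 in the vehicle library, 4.14 under ATRA, 1.24 under SAHA and 0.674 under both. ATRA alone thus had the highest ratio and the combination the lowest. The ratio of guardians to effectors was 3.43, 2.63, 2.23 and 1.24 in the same order, and was below vehicle in all 3 treated libraries. With geometric means in place of sums it was 1.39, 1.22, 1.01 and 0.890, in the same order from high to low. Bcl2l1 supplied 57.5% of the guardian level with vehicle and 68.3% with ATRA, but 18.1% with SAHA, where Mcl1 supplied 77.6%. Without Bcl2l1 the ratio of guardians to BH3-only genes was 1.31 in the vehicle library, 1.31 under ATRA, 1.02 under SAHA and 0.477 under both. The mix of BH3-only RNA differed too: Bid held 42.5% of it with vehicle and 24.1% with SAHA, Bad 12.0% and 26.7%, and Bcl2l11 6.12% and 20.9%. These are ratios of RNA levels and do not give the balance of the proteins.

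**Figure D3:**
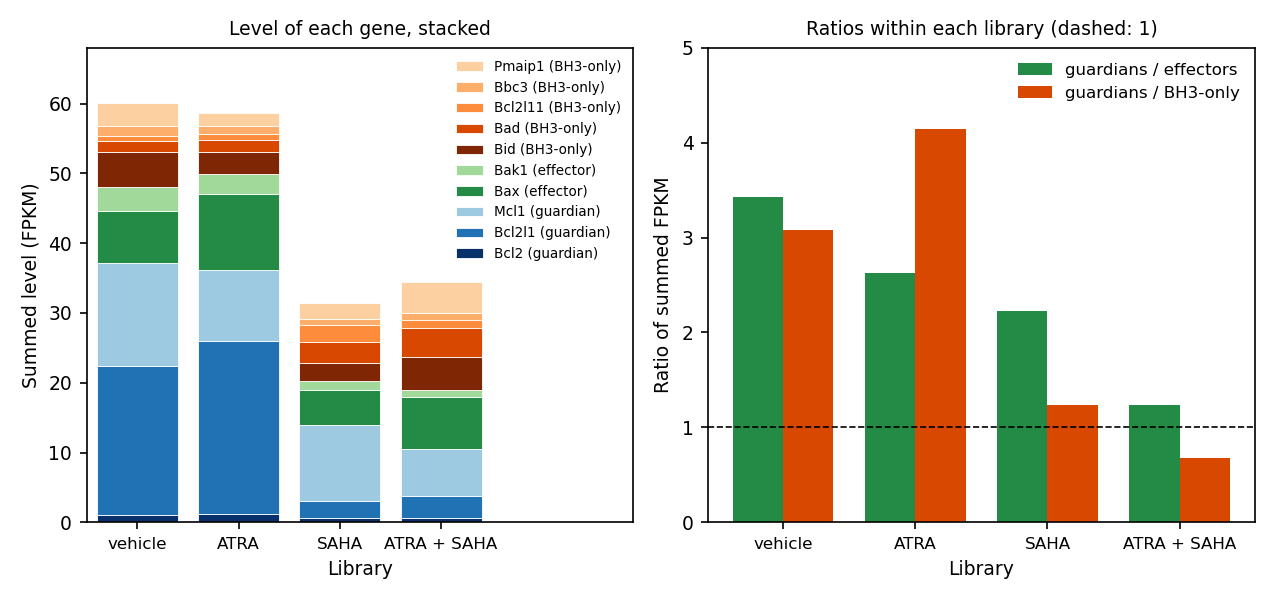
Left, FPKM of the family genes stacked by gene in each library, with guardians in blue, effectors in green and BH3-only genes in orange. Right, the summed guardian level over that of the effectors and of the BH3-only genes in each library, where the guardian to BH3-only ratio drops below 1 only in the combination (0.674).

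The 2 by 2 layout of the treatments allows the difference with ATRA to be read without and with SAHA. For Bcl2l1 it was 0.20 in both settings, and the departure from additivity, the second difference minus the first, was 0.00. Bax gave 0.48 and 0.51, Mcl1 -0.49 and -0.60, and Bak1 -0.17 and -0.22, so that for these 4 genes the combination lay within 0.11 of the sum of the single differences. After rescaling, their departures were -0.14 to -0.33, and that of Bad, 0.16 here, was 0.00 and -0.03.

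Bid and Pmaip1 departed most. Bid stood at -0.58 with ATRA alone and at 0.64 when ATRA was added to SAHA, a departure of 1.22. Pmaip1 stood at -0.55 and 0.79, a departure of 1.35, with the combination 2.06-fold above SAHA and 2.37-fold above ATRA. Over the counted genes 6.42% departed by 1 or more in either direction, 4.69% upward and 1.73% downward, and the median departure was 0.15. Bcl2l11 went the other way, from 0.02 to -0.65, a departure of -0.67, with 4.0% of counted genes lower. These values rest on 4 single libraries and were not tested.

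**Figure D4:**
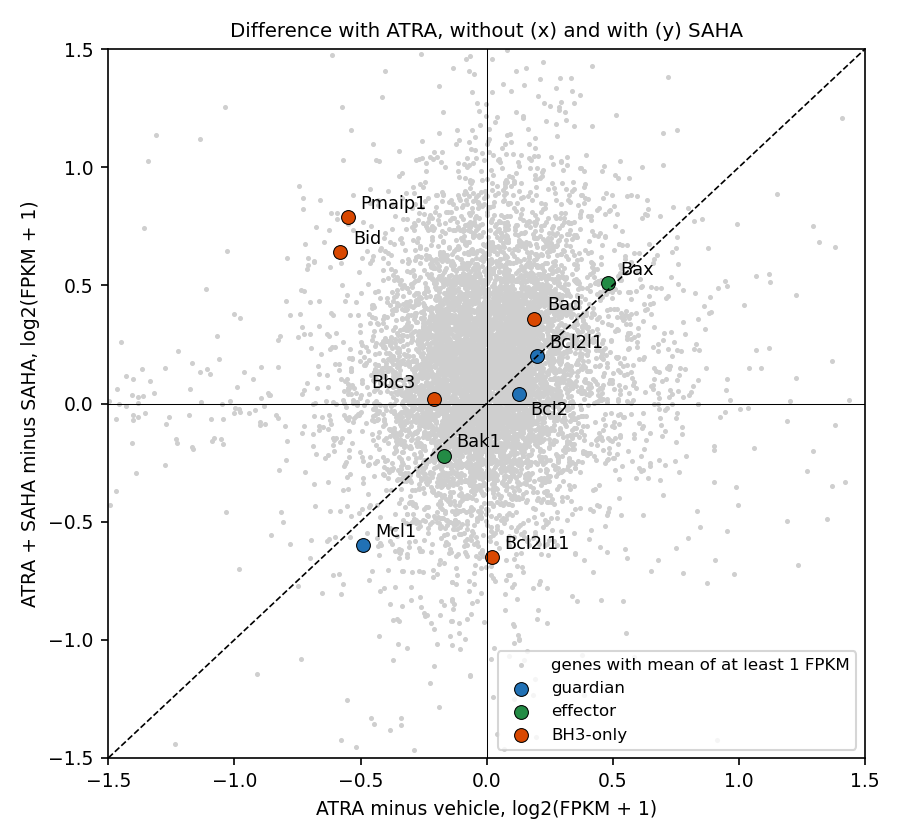
Difference with ATRA in log2(FPKM + 1), without SAHA on the x axis and with SAHA on the y axis, for the family genes (coloured by role) and the counted genes within the plotted range (grey), with equal differences on the dashed line. Bid and Pmaip1 lie in the upper left, at -0.58 and 0.64 and at -0.55 and 0.79, while Bcl2l1, Bax, Mcl1 and Bak1 lie close to the line.

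For the 4 genes past the mark, the counted genes with the nearest 3 differences from vehicle were listed, by the Euclidean distance of the log2 values, which share the vehicle library. Nearest to Bcl2l1 were Klra7 (distance 0.148), Klra22 (0.172) of the same gene family, with which it may share reads, and Fam110c (0.194). Mcl1 was closest to Ncoa5 (0.106), B2m (0.163) and Plod2 (0.168). Bak1 had Trpm7 (0.055), Cnot6l (0.090) and Wdr13 (0.091) nearest, and Bad had Edf1 (0.038), Sipa1 (0.060) and Gosr2 (0.068).

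Of the 16 other family genes listed, 5 were counted. Of these 5, 0 passed the mark with ATRA, 1 with SAHA and 2 with the combination, all lower, where 16.0% and 12.6% of all counted genes were lower with SAHA and with the combination. Bok, an effector-like gene, was low in the same libraries as Bcl2l1, at 4.04 FPKM in the vehicle library, 5.15 under ATRA, 0.463 under SAHA and 0.568 under both, log2 differences of 0.29, -1.78 and -1.68. Bnip3, a mitophagy receptor gene, was at 18.9, 21.2, 13.4 and 8.67 FPKM, with -1.04 for the combination. Its relative Bnip3l was at 11.8 to 14.4 FPKM in all 4 libraries. The guardian gene Bcl2l2, which encodes BCL-W, was at 1.25, 1.16, 0.457 and 0.665 FPKM, below the filter by its mean of 0.883.

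Most of the remaining family genes were barely present. Bcl2a1a, Bcl2a1b and Bcl2a1c, near-identical copies known from blood cells that may share reads, were listed at 0 in all 4 libraries. Bcl2a1d was at 0.0152 FPKM with SAHA and listed at 0 in the others. Bcl2l10, Bik and Hrk were at most 0.0320 FPKM in any library, and Bcl2l15 at most 0.105. The BH3-only gene Bmf was at 0.209 FPKM in the vehicle library, 0.336 under ATRA, 0.865 under SAHA and 0.730 under both. Bcl2l14 was at 0.402 FPKM with ATRA and at 0.0511 or less in the others. Bcl2l12 ranged from 0.850 to 1.60 FPKM and Bcl2l13 from 1.06 to 1.61.

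Downstream of the mitochondria, 14 of 17 listed genes were counted, and 1 passed the mark upward and 2 downward with SAHA, and 1 in each direction with the combination. Of all counted genes, 7.88% were higher and 16.0% lower with SAHA, and 11.1% and 12.6% with the combination. Diablo, which encodes SMAC, the mitochondrial protein that blocks inhibitors of apoptosis, was at 2.50 FPKM in the vehicle library, 2.36 under ATRA, 7.96 under SAHA and 9.19 under both. Xiap, one of those inhibitors, was at 2.83, 2.76, 0.805 and 0.539 FPKM. The 2 genes thus had opposite patterns, both split by SAHA, although Xiap with SAHA stood at -1.09 and at -0.96 after median centring. Other listed inhibitor genes were not split in this way, with Birc2 at 1.31 to 1.64 FPKM, Birc3 at 0.276 to 0.405 and Birc6 at 1.13 to 2.01. Birc5, which encodes survivin and is made in dividing cells, was at 12.1, 11.6, 3.80 and 11.0 FPKM. The cytochrome c gene Cycs was at 6.66 to 9.64 FPKM.

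Among 15 transcription factors known to act on family genes, 11 were counted. With ATRA 1 was lower, 6 were lower with SAHA, and 5 were lower and 1 higher with the combination. The shares of all counted genes that were lower were 1.20%, 16.0% and 12.6% in these comparisons, and 11.1% were higher with the combination. Trp53, the p53 gene and an activator of Bbc3, Pmaip1 and Bax, was at 12.5 FPKM in the vehicle library, 11.8 under ATRA, 1.46 under SAHA and 2.49 under both. Atf4, the stress factor, was at 103, 92.3, 20.3 and 76.6 FPKM, and Myc at 44.7, 26.5, 6.97 and 13.1. Ddit3, which encodes the stress factor CHOP, was at 25.4, 8.34, 15.6 and 411 FPKM. Ddit3 was thus lower than vehicle with ATRA and far above it in the combination.

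Of 17 genes whose proteins act on family proteins, 16 were counted, and 0 passed the mark with ATRA. With SAHA 1 was higher and 3 lower, and with the combination again 1 and 3, beside the same shares of all counted genes (16.0% and 12.6% lower, 7.88% and 11.1% higher). Casp8, whose product cleaves BID, was at 7.01 FPKM in the vehicle library, 7.28 under ATRA, 0.684 under SAHA and 0.785 under both. Akt1, a kinase that inactivates BAD, was at 13.1, 14.3, 2.92 and 3.88 FPKM. Ywhaz, a 14-3-3 gene whose product binds phosphorylated BAD, was at 18.2, 15.3, 7.60 and 6.78. The other listed 14-3-3 genes were Ywhaq, at 33.2, 32.6, 35.5 and 46.8 FPKM, and Ywhab, at 4.13, 3.56, 3.79 and 2.66. Ywhaq was thus highest in the combination, where Ywhaz was lowest. The Ywhaz difference with SAHA, -1.16, no longer passed the mark after upper quartile scaling. Pim1, another kinase acting on BAD, was at 2.78, 5.01, 6.73 and 9.86 FPKM. The other listed Pim genes did not share this pattern, with Pim3 at 9.40, 13.8, 6.48 and 13.6 and Pim2 at 0.548, 0.411, 1.30 and 0.957. Of the enzymes that set the stability of MCL1, Huwe1 was at 2.40 to 3.15 FPKM, Usp9x at 6.10 to 8.26 and Fbxw7 at 1.04, 0.989, 2.18 and 1.96.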

How the data were processed

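RNA was depleted of ribosomal RNA and sequenced, 1 library per group, per the labels' protocols. Reads were trimmed with Trimmomatic 0.32 and expression computed with Cuffdiff on mm10, per the submitters' processing notes. The sources used here do not give the aligner, annotation, strand setting or scaling. FPKM are the values as deposited, per the file headers. Python 3.11.15 with pandas 2.3.3 was used to compute log2(FPKM + 1) differences. Genes averaging 1 FPKM or more were counted. No test was run, since every group has 1 library. The step that counts genes past the 2-fold mark was checked on simulated data with known differences. These were well past the mark and in genes averaging at least 5 FPKM, so calls near the mark or in lower genes were not checked. An estimate of depth was tried from FPKM times transcript length in genes with 1 GENCODE M21 transcript of 1000 to 4000 bases. The median of the values within a fixed window of 0.006 to 0.0145 was used, and no step was located. The window itself largely sets that median. The estimate therefore does not measure the depth of a library, and no fragment numbers are given. The FPKM give no counting interval. Coordinates are from GENCODE M21 (mm10) and start regions from RefSeq (GRCm38.p6).

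The members, lists and rules were chosen with earlier results of these data known. The rule named all 10 members, all 16 other family genes, up to 4 leading genes of each of the other lists and the 3 nearest genes of each member past the mark. One listed gene is not reported here. Cycs, Birc2, Birc3, Birc6, Huwe1, Usp9x, Fbxw7, Ywhaq, Ywhab, Pim2 and Pim3 were added for their roles after their values were seen. Alternatives were a pseudocount of 0.1, no filter, a mean of at least 5 FPKM, median centring, upper quartile scaling and, for ratios, geometric means.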

Additional observations from a re-analysis of the deposited data

Results flagged for a closer look

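Bid and Pmaip1 were picked out because the difference with ATRA had opposite signs without and with SAHA and the 2 differences lay at least 1 apart on the log2 scale. Bcl2l11 (0.02 and -0.65) and Bbc3 (-0.21 and 0.02) also had opposite signs but lay closer together. The departure from additivity was 1.22 for Bid and 1.35 for Pmaip1 on the log2(FPKM + 1) scale. With a pseudocount of 0.1 the departures were 1.51 and 1.76, after median centring 1.06 and 1.19, and after upper quartile scaling 1.04 and 1.17. The difference was not tested, since each value comes from 4 single libraries.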

How the results depend on the processing

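No called difference of a family gene changed direction or dropped under the 2-fold mark with another pseudocount or scaling. With a pseudocount of 0.1, 3 family genes passed the mark with SAHA in place of 1 (Bak1 at -1.33 and Bcl2l11 at 1.54 joined Bcl2l1), and 4 in the combination against ATRA in place of 1 (Bak1 -1.50, Bad 1.15 and Pmaip1 1.20). In the combination against SAHA 1 passed in place of 0 (Pmaip1, 1.01). After median centring or upper quartile scaling 2 passed with SAHA (Bcl2l11 added) and 2 in the combination against ATRA (Bak1 added, -1.02 and -1.01). With a mean of at least 5 FPKM only Bcl2l1, Mcl1 and Bax remained in the count, and 2 passed in the combination against vehicle in place of 4.

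Over all 8616 counted genes, those past the mark went from 2060 to 3045 with SAHA, from 1930 to 2933 in the combination against ATRA, and from 342 to 675 in the combination against SAHA with the lower pseudocount. With the mean of at least 5 FPKM, where fewer genes are counted, 66 passed with ATRA in place of 182, 933 with SAHA in place of 2060, 911 in the combination against vehicle in place of 2043, 854 against ATRA and 205 against SAHA. With the filter at 1 FPKM, the share of calls with SAHA that were higher was 33.0%, and 43.2% after median centring and 44.6% after upper quartile scaling. In the combination against SAHA it was 76.6%, 61.7% and 57.2%. Rescaling also turned the sign of 2 small differences in the combination against SAHA, Bcl2 (0.04 to -0.12 and -0.06) and Bbc3 (0.02 to -0.14 and -0.11).

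With geometric means in place of sums, the guardian to effector ratio was 1.39 with vehicle, 1.22 with ATRA and 1.01 with SAHA, and 0.890 with the combination. The guardian to BH3-only ratio was then 3.61, 4.36, 1.21 and 0.940, in the same order of libraries from high to low. No paired analysis was possible because each group has 1 library. The lowest value among the 10 family genes was 0.598 FPKM, for Bcl2 with SAHA, and the fragments behind such low values are not known. Of the other named genes, Xiap and Ywhaz lost their SAHA call under 1 scaling each, and Wdr13 and Jun (SAHA) and Sipa1 (combination) under both.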
